A study of Mus musculus with 3 samples.

Results

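Macrophages from metastasis-bearing mouse brains carried very different amounts of MHC class II protein, and cells at the high and low ends of that range were compared here. Cells were chosen by their transcripts and then ranked by the share of their antibody tags that came from the I-A-I-E antibody, which binds mouse MHC class II. A macrophage was a barcode with at least 500 genes, at most 15% mitochondrial UMIs (unique molecular identifiers, each counting 1 captured transcript), 2000 to 40000 UMIs, at least 70% of its hashtag counts from 1 hashtag, at least 1 UMI of Ms4a7, 3 of Apoe and 3 of Fcer1g, and at most 1 of the 6 microglia genes P2ry12, Tmem119, Fcrls, Gpr34, Sall1 and Siglech. These limits left 919 macrophages among 12908 barcodes, of which 5336 passed the limits on quality, UMIs and hashtag. Within each hashtag sample the cells were cut into I-A-I-E-high, I-A-I-E-middle and I-A-I-E-low macrophages of nearly equal number. Hashtag samples 2, 3, 5, 6, 7 and 8 had enough cells, giving 294 high, 300 middle and 294 low macrophages, with 32 to 85 cells per sample in the high and in the low group. Hashtag samples 1 and 4 held 9 and 22 macrophages and entered no test.

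The cells came from brains of female C57Bl/6 mice aged 2 to 3 months in which metastases had been seeded by injecting E0771, a mouse mammary carcinoma line, into the carotid artery. Some mice also received antibodies against VISTA and PD-L1, both immune checkpoint proteins, every other day from day 3 after injection, and others did not. All samples carried metastases, and no tumour-free brain was analysed here. After Percoll enrichment of immune cells, 8 samples were each stained with 35 antibodies and a hashtag of their own, pooled and sequenced as 1 library by CITE-seq (transcripts and antibody tags counted in the same cells), so the 3 deposited records are the RNA, antibody and hashtag counts of the same barcodes. The sources used here do not tie a hashtag to a treatment, and do not state if 1 hashtag stands for 1 animal. Treatment was therefore not compared, and a p-value covers the spread between hashtag samples only, which may be technical. High and low macrophages of 1 hashtag sample shared staining, capture and sequencing.

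MHC class II molecules are heterodimers that present peptides from ingested proteins to CD4 T cells. In mice the H2-Aa and H2-Ab1 genes encode the chains of I-A and H2-Eb1 the β chain of I-E, and C57Bl/6 mice are known to lack a functional I-E α chain. The invariant chain, Cd74, guides new heterodimers to endosomes, H2-DM helps load the peptide, and the coactivator Ciita, brought to the promoter by factors bound to conserved X and Y boxes, switches the genes on. Resting microglia are known to hold little class II, while dendritic cells, border-associated macrophages and interferon-stimulated macrophages hold much.

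The I-A-I-E tag was read through the 15-base barcode carried by its antibody, shown here because its count sets the groups, together with the barcodes of the 9 other tags that later differed between the groups.
I-A-I-E: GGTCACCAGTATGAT
CD11c: GTTATGGACGCTTGC
CD103: TTCATTAGCCCGCTG
CD86: CTGGATTTGTGTATC
CD25: ACCATGAGACACAGT
CD83: TCTCAGGCTTCCTAG
CD117-c-kit: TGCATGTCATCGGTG
PD-L1: TCGATTCCACCAACT
Ly6C: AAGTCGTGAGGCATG
CD4: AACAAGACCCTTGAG

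Promoter sequences are shown for 4 class II genes whose RNA later proved higher in I-A-I-E-high macrophages, each as 150 bases of RefSeq's GRCm38.p6 sequence, 5′ to 3′ on the gene's strand. Capitals mark a Y box, searched as TGATTGG, and an X box, searched as GATGATG, on both strands of windows from 250 bases before to 50 bases after the start. The letters were chosen after these windows had been read, and the search is a description and not evidence of binding.
H2-Aa, chr17:34287824-34287973, minus strand: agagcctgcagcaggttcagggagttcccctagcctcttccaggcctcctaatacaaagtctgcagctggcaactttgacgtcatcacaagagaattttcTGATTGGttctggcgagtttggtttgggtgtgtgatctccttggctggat
H2-Eb1, chr17:34305717-34305866, plus strand: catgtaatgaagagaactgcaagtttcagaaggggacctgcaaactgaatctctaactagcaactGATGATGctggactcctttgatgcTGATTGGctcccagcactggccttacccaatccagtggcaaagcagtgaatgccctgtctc
H2-DMb1, chr17:34153041-34153190, plus strand: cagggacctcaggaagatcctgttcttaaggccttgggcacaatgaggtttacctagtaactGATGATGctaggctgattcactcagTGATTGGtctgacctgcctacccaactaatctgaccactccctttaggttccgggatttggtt
H2-DMb2, chr17:34145099-34145248, plus strand: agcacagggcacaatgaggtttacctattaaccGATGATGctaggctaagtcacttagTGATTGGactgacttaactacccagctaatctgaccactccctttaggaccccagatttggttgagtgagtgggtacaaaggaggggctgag
The Y letters began 50 bases before the start in H2-Aa, 61 in H2-Eb1, 63 in H2-DMb1 and 92 in H2-DMb2. The X letters lay 85, 88 and 117 bases before the start in H2-Eb1, H2-DMb1 and H2-DMb2, ahead of the Y box, and were not in the H2-Aa window. Across 32851 promoter windows, Y letters were in 2568 (7.82%), X letters in 1143 (3.48%) and both in 78. H2-DMb1, H2-DMb2 and H2-Eb1 were among the windows with both (0.237% of all). Among tested class II list genes with a window, Y letters were in 4 of 5 with higher RNA in I-A-I-E-high macrophages and in 1 of 7 others, and X letters in 3 of 5 and 0 of 7. The letters were chosen after windows of higher genes had been read, so these counts, also beside all windows, cannot show an enrichment. H2-Ab1, Cd74 and Ciita are named only.

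The tag's share of all antibody tags spanned 0.221 to 76.9% of the tags of a cell. Its median over cells was 35.4% in I-A-I-E-high macrophages, 12.2% in the middle and 1.39% in I-A-I-E-low macrophages. These values chose the groups and carry no test. The low group's median lay close to the 1.24% of T cells and the 1.86% of microglia in the same capture. At the border, the lowest high cell of a hashtag sample had 9.86% (sample 6) to 32.1% (sample 7) and the highest middle cell 8.402 to 31.7%. The lowest middle cell had 1.79 to 7.71%, and the highest low cell 1.77 to 7.59%. A high macrophage of sample 3 or 6 could therefore have a smaller share than a middle macrophage of sample 7.

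I-A-I-E-high macrophages also held more RNA. Their median UMIs per hashtag sample ran from 14548 to 18649 (median 15794), against 9956 to 12326 (median 11156) in I-A-I-E-low macrophages. Median genes per cell were 3401 to 3811 in the high group and 2738 to 3075 in the low group, and the groups did not overlap in either measure. Median antibody tags other than I-A-I-E were 3406 to 4983 in the high and 3349 to 3916 in the low group, with overlap. Each of the 3 was higher in 6 of 6 hashtag samples (two-sided exact sign-flip permutation test over 6 hashtag samples, p = 0.03125, the smallest it can give, and 0.0521 after Benjamini-Hochberg adjustment over 5 measures). Mitochondrial UMIs were 1.02 to 1.17% in the high and 1.13 to 1.39% in the low group (exact p = 0.0938). Because depth differed, levels are given as CPM, the UMIs of a gene per 1000000 RNA UMIs summed over the cells of a group in 1 hashtag sample. The summed libraries held 601135 to 1496619 UMIs in the high and 366823 to 1071137 UMIs in the low group.

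The macrophage label was checked against genes that the choice of cells did not use. Over all 919 cells, Cd68, a lysosomal glycoprotein, stood at 933 CPM, against 263 CPM in the other 4417 barcodes within the limits. Adgre1, the F4/80 antigen, stood at 174 against 60.1 CPM. Csf1r, the receptor for macrophage colony-stimulating factor, was at 353 CPM in macrophages and 1938 CPM in microglia. RNA of T cells (Cd3e, 14.5 CPM), carcinoma cells (Krt8, 13.3 CPM) and endothelium (Cldn5, 20.9 CPM) was low but not at 0. Flt3, which defines dendritic cells, was at 9.26 CPM, against 9.43 CPM in the rest. Only 68 of 919 macrophages had fewer than 2 UMIs of the monocyte genes Chil3, Plac8 and Ly6c2 together, and those genes are typical of infiltrating monocytes.

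RNA for all 3 tested MHC class II chains followed the protein. H2-Aa ran from 3693 to 7712 CPM in I-A-I-E-high macrophages (median 5253), from 775 to 4975 CPM in I-A-I-E-middle (median 3470.0) and from 35.4 to 1061 CPM in I-A-I-E-low macrophages (median 284). The high and low groups did not overlap and the middle group lay between them in 6 of 6 hashtag samples (log2 fold change 4.15 ± 0.60 SE, adjusted p = 0.0194). H2-Ab1, the β chain of I-A, behaved in the same way. H2-Ab1 ran from 3769 to 8803 CPM in I-A-I-E-high macrophages (median 4863), from 789 to 5861 CPM in I-A-I-E-middle (median 3366) and from 32.7 to 1239 CPM in I-A-I-E-low macrophages (median 315), a log2 fold change of 3.85 ± 0.56 (SE, adjusted p = 0.02). H2-Eb1 ran from 3063 to 6287 CPM in I-A-I-E-high macrophages (median 4189), and from 2.73 to 765 CPM in I-A-I-E-low macrophages (median 173), a log2 fold change of 4.50 ± 0.76 (SE, adjusted p = 0.0329). H2-Eb1 was again ordered high, middle and low in every hashtag sample. These p-values, from the edgeR quasi-likelihood test blocked by hashtag sample and adjusted by Benjamini-Hochberg over 5755 genes, were moderate beside the size of the differences, and the low group spanned a wider range of CPM on the log scale than the high group. H2-Eb2 had 82 UMIs in high and 0 in low macrophages and was below the count filter.

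In I-A-I-E-low macrophages H2-Aa averaged 452 ± 456 CPM (SD, n = 6), near the level of cells that should not make it. T cells of the same 6 hashtag samples (742 cells with at least 2 Cd3e and no Ms4a7 UMIs) averaged 342 ± 233 CPM of H2-Aa (SD, n = 6), with a range of 22.98 to 677 CPM. For Cd74 the averages were 1951 ± 1414 CPM in low macrophages and 912 ± 599.6 CPM in T cells. A median T cell (749 cells of all hashtag samples) held 5876 UMIs and a median low macrophage 11391. Whether low macrophages made the H2-Aa transcripts counted in them was not tested.

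Cd74, the invariant chain, rose with the class II chains. Cd74 ran from 8238 to 16989 CPM in I-A-I-E-high macrophages (median 10682), from 2522 to 12294 CPM in I-A-I-E-middle (median 8549) and from 349 to 3741 CPM in I-A-I-E-low macrophages (median 1532). The groups did not overlap (log2 fold change 2.91 ± 0.40 SE, adjusted p = 0.0158). Ciita ran from 46.4 to 109.7 CPM in I-A-I-E-high macrophages (median 90.3), and from 0 to 30.5 CPM in I-A-I-E-low macrophages (median 12.5), with the middle group between them in 6 of 6 hashtag samples. Ciita, the class II coactivator, was thus higher without overlap (log2 fold change 2.39 ± 0.26 SE, adjusted p = 2.68e-05). Ciita was at 0 in the low group of hashtag sample 6 and passed the count filter through the high group. The H2-DM genes differed by unequal amounts. H2-DMa averaged 426 ± 152 CPM in I-A-I-E-high and 228 ± 116 CPM in I-A-I-E-low macrophages (SD, n = 6 each; log2 fold change 0.97 ± 0.10 SE, adjusted p = 1.49e-07). H2-DMb1 averaged 524 ± 179 CPM in I-A-I-E-high and 156 ± 104 CPM in I-A-I-E-low macrophages (log2 fold change 1.84 ± 0.28 SE, adjusted p = 0.0187), and H2-DMb2 54.1 ± 25.5 CPM in I-A-I-E-high and 5.699 ± 3.14 CPM in I-A-I-E-low macrophages (log2 fold change 3.04 ± 0.28 SE, adjusted p = 4.08e-08). H2-DMa was higher in 6 of 6 hashtag samples but its ranges overlapped between samples, whereas those of both β chains did not. H2-DMb1 and H2-DMb2 are closely similar neighbours, so the division of reads between them is uncertain.

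Not every class II list member differed or could be tested. H2-Oa and H2-Ob, which restrain H2-DM, had 210 and 67 UMIs in high and 12 and 2 UMIs in low macrophages and were below the count filter. Ctss, the protease that trims the invariant chain, averaged 4396 ± 490.0 CPM in I-A-I-E-high and 4435 ± 440.2 CPM in I-A-I-E-low macrophages and did not pass (log2 fold change 0.01 ± 0.07 SE, adjusted p = 0.97). Lgmn, an endosomal protease, did not pass either (adjusted p = 0.796). Ctsl, a cathepsin, was lower in I-A-I-E-high macrophages in 6 of 6 hashtag samples (log2 fold change -0.56 ± 0.09 SE, adjusted p = 0.000164). Among 7 tested regulators of class II transcription and turnover, Ciita passed and 6 did not, among them Rfxap of the complex that binds the X box and Nfya, Nfyb and Nfyc of the complex that binds the Y box. Rfx5, Rfxank and March8 were below the filter. Of all genes tested, 3.34% were higher and 2.68% lower in I-A-I-E-high macrophages, against 3 of 3 tested class II chains, 4 of 7 loading genes and 1 of 7 regulators higher, and 1 loading gene lower. Ciita passed the count filter through the high group. So did H2-DMb2, with 266 UMIs in high and 24 in low macrophages, so the counts are a description.

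**Figure D1:**
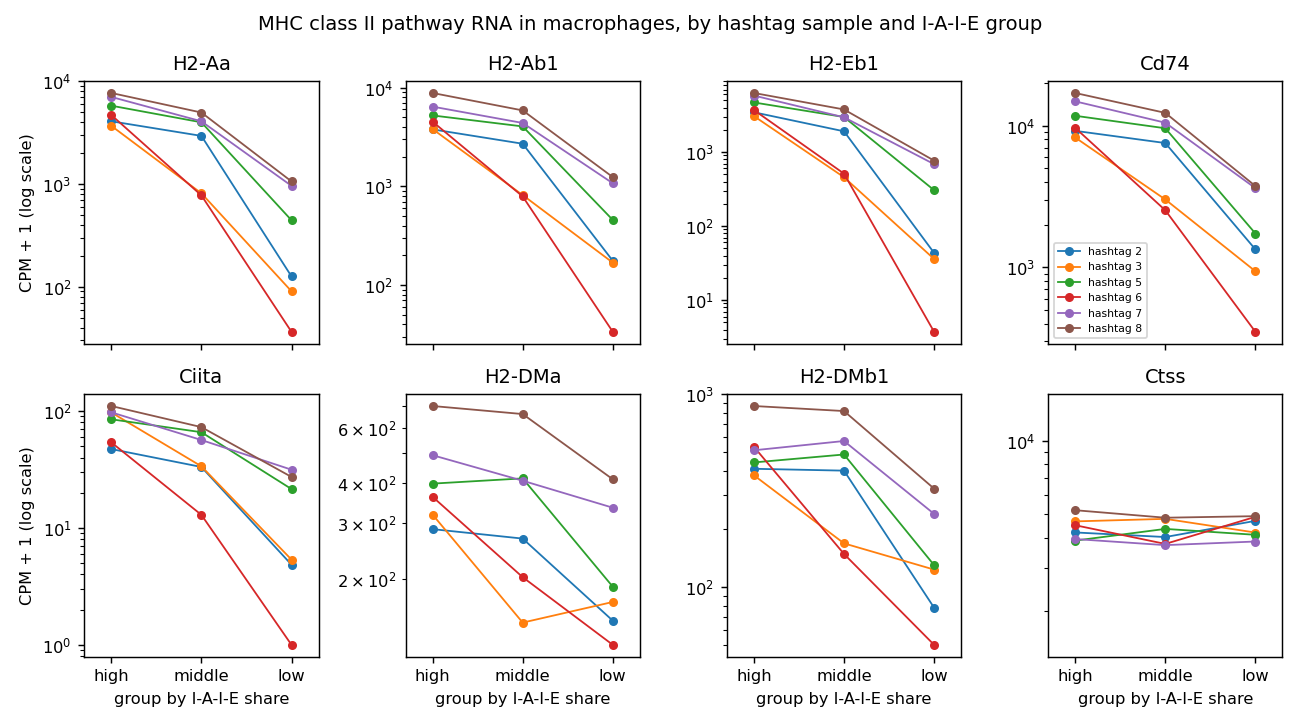
RNA of class II genes in I-A-I-E-high, I-A-I-E-middle and I-A-I-E-low macrophages, as CPM + 1 on a log axis, with 1 point per hashtag sample and lines joining the groups of a sample. For H2-Aa the 6 high points lie above all 6 low points, and the middle points fall between them within every sample.

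Cell by cell, the same genes tracked the protein. After each cell had been thinned to 2000 UMIs, the Spearman correlation between the I-A-I-E share and H2-Aa UMIs ran from 0.67 to 0.82 over the 6 hashtag samples (97 to 255 cells each). It ran from 0.59 to 0.79 for H2-Ab1, from 0.71 to 0.78 for H2-Eb1 and from 0.64 to 0.74 for Cd74. Cells of a sample share a library, so these are descriptions without a p. When hashtag sample 2, 3 or 5 was left out, the calls of H2-Aa and Cd74 were lost. Over the 6 fits that left out 1 sample each, the H2-Aa log2 fold change was between 3.81 and 4.47 (adjusted p 0.0276 to 0.0813), and Cd74 had an adjusted p of 0.00079 to 0.0716. The call of H2-Ab1 was lost without any of these or sample 8 (adjusted p 0.016 to 0.0854 over the fits), and that of H2-Eb1 also without sample 7 or 8 (adjusted p 0.0499 to 0.112). With 2 groups per sample in place of 3, H2-Aa had a log2 fold change of 2.55 (adjusted p = 0.08). Ranked within 3 bins of UMIs, which evens out depth, it had 3.63 (adjusted p = 0.0123). Among the 462 macrophages at or below their sample's median share of Chil3, Plac8 and Ly6c2 UMIs the log2 fold change was 3.35 (adjusted p = 0.163) for H2-Aa and 2.68 (adjusted p = 0.16) for Cd74, while Ciita, at 2.41 (adjusted p = 9.31e-05), and H2-DMa, at 0.91 (adjusted p = 0.000311), still passed.

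Beyond class II, 192 genes were higher in I-A-I-E-high macrophages and 154 lower among 5755 tested, with a median log2 fold change over all genes of 0.00. The middle group's mean lay between the other means for 153 of the 192 higher genes and 144 of the 154 lower ones. On a scale where the low group is 0 and the high group 1, the middle group stood at a median of 0.245 for higher genes and 0.519 for lower genes. The middle group's means were therefore nearer the low group for higher genes and near the midpoint for lower genes. Without the hashtag block the counts were 106 higher and 51 lower. DESeq2 with the same block, run on 15853 genes without the count filter, called 127 and 74.

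**Figure D2:**
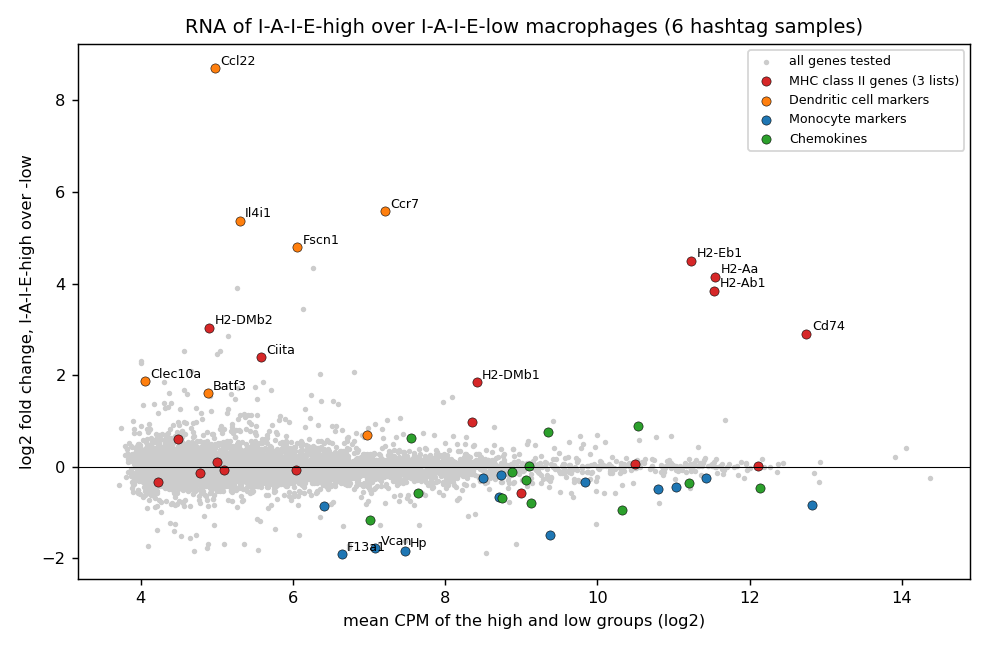
Mean level of the high and low groups (log2 CPM, horizontal) against log2 fold change, I-A-I-E-high over I-A-I-E-low macrophages (vertical), for 5755 tested genes. The 192 higher genes reach larger fold changes than the 154 lower ones, with class II and dendritic cell genes at the upper edge.

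Part of the high group carried RNA of mature dendritic cells. All 7 tested dendritic cell markers were higher in I-A-I-E-high macrophages (7 of 7, where 3.34% of all genes were), and 11 of the 18 listed were below the count filter. The low group held 0, 7, 20 and 25 UMIs of Ccl22, Il4i1, Fscn1 and Ccr7, which thus passed the filter through the high group, so the count is a description. Ccr7, the receptor that takes dendritic cells to lymph nodes, is absent from most macrophages. Ccr7 ran from 59.9 to 537 CPM in I-A-I-E-high macrophages (median 268), and from 0 to 11.7 CPM in I-A-I-E-low macrophages (median 3.14), a log2 fold change of 5.58 ± 0.43 (SE, adjusted p = 0.000705). Fscn1 ran from 24.95 to 252 CPM in I-A-I-E-high macrophages (median 114), and from 2.18 to 11.6 CPM in I-A-I-E-low macrophages (median 3.86), a log2 fold change of 4.79 ± 0.23 (SE, adjusted p = 5.67e-14), and Fscn1 bundles actin in mature dendritic cells. Il4i1, an amino acid oxidase, had a log2 fold change of 5.37 ± 0.30 (SE; adjusted p = 1.69e-12). Ccl22, a chemokine of the same cells, had 339 UMIs in high and 0 in low macrophages, which is at least 86.2-fold higher against a floor of 3 UMIs over the group (adjusted p = 9.06e-11). The summed level of all 18 dendritic cell markers was 423 to 1379 CPM in I-A-I-E-high and 104 to 233 CPM in I-A-I-E-low macrophages, without overlap. Among untested markers, Ccl17 had 164 UMIs in high and 0 in low macrophages, Flt3 97 and 10, and Xcr1, a receptor of cross-presenting dendritic cells, 47 and 0.

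This RNA sat in a minority of cells. At least 5 UMIs of Ccr7, Fscn1, Ccl22 and Il4i1 together, a limit set after the values had been seen, were found in 65 of 294 high, 2 of 300 middle and 2 of 294 low macrophages. At least 1 such UMI was found in 110 of 294 high, 39 of 300 middle and 35 of 294 low macrophages, and neither count was adjusted for the UMIs of a cell. The share of cells with at least 5 in the high group ran from 8.57% in hashtag sample 3 to 39.4% in sample 7, was higher than in the low group in 6 of 6 samples, and differed by 21.1 ± 11.99 percentage points (SD, n = 6), a description with no test, since the genes were chosen for this difference. Of 5336 barcodes within the limits, 401 passed the same limit and 71 of those were macrophages by the rule. The 65 cells had a median of 24660 UMIs, against 13841 in the other 229 high macrophages and 11391 in low macrophages. They held 979.8 CPM of Ccr7, against 12.1 in the other high cells and 6.31 in low cells. They also held macrophage RNA outside the rule, with 1398, 2506 and 1331 CPM of C1qa in the same order of groups. Ms4a7, which the rule required in every macrophage, stood at 791, 1187 and 989 CPM. Their median hashtag purity was 98.5%, a measure that cannot show 2 cells of 1 hashtag sample. Median hashtag counts were 2422 in these 65 cells, 1204 in the other high cells and 974.5 in low cells. Whether 2 cells of 1 hashtag sample shared a barcode was not tested.

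Class II chains, Cd74, Ciita and H2-DMa kept their calls without those cells. With every macrophage holding that RNA left out, the log2 fold change was 4.41 (adjusted p = 0.0206) for H2-Aa, 4.18 (adjusted p = 0.0206) for H2-Ab1 and 4.83 (adjusted p = 0.0345) for H2-Eb1. It was 3.11 (adjusted p = 0.0192) for Cd74, 2.70 (adjusted p = 3.03e-06) for Ciita and 0.98 (adjusted p = 1.21e-05) for H2-DMa, while H2-DMb2 was below the filter. Ctsl lost its call there, at -0.57 (adjusted p = 0.157). The counts over all genes were smaller, with 62 higher (1.17%) and 60 lower (1.13%) of 5294 tested. Of the 192 genes higher with all cells, 163 could still be tested and 57 passed, and of the 154 lower genes 152 could be tested and 55 passed. The dendritic cell markers Batf3, a transcription factor, Clec10a, a lectin, and Naaa, a lysosomal amidase, still passed, at 1.48 (adjusted p = 0.000279), 1.82 (adjusted p = 0.00366) and 0.80 (adjusted p = 0.00124). Ccr7, Fscn1, Il4i1 and Ccl22 were no longer testable, as the removal used them.

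**Figure D3:**
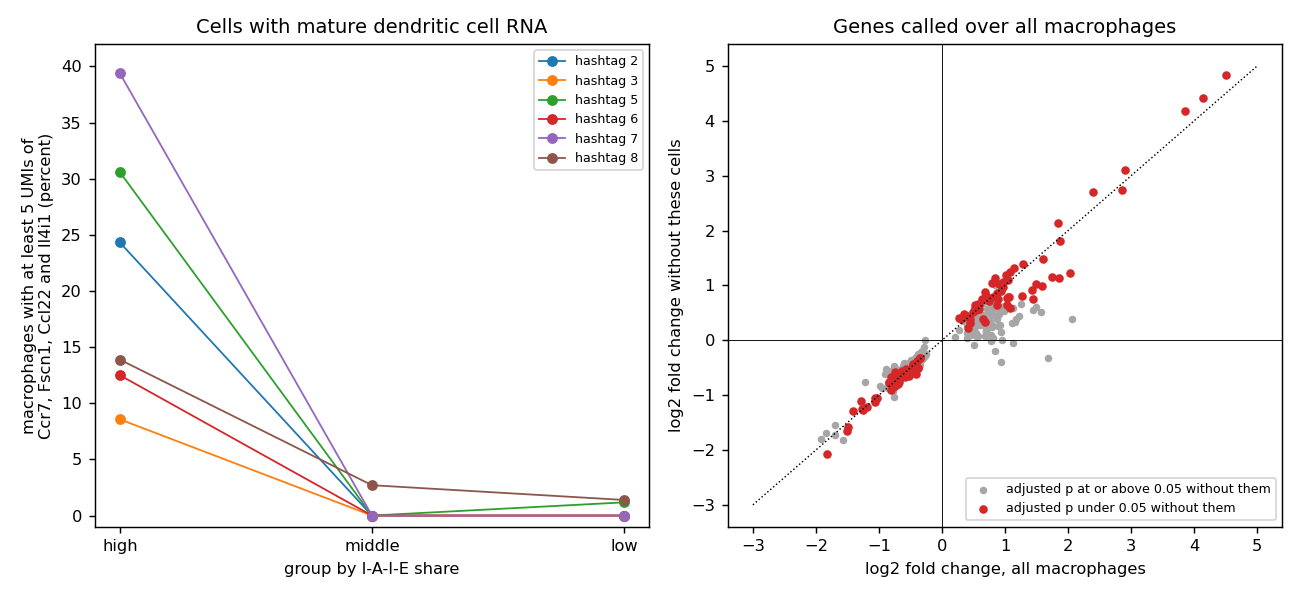
Percent of macrophages with at least 5 UMIs of Ccr7, Fscn1, Ccl22 and Il4i1 together, per hashtag sample, in I-A-I-E-high, -middle and -low macrophages, and beside it the log2 fold changes of genes called over all macrophages, with (horizontal) and without (vertical) these cells. The high points run from 8.57 to 39.4%, each above its low point, and the class II chains stay near the dotted line of equal values.

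Costimulatory molecules, which a T cell needs beside the peptide, were partly higher. Of 11 tested costimulation and coinhibition genes, 4 were higher and 1 lower, where 3.34% of all genes were higher and 2.68% lower (median log2 fold change 0.41). Icosl, the ligand of ICOS, averaged 23.3 ± 3.73 CPM in I-A-I-E-high and 9.32 ± 1.16 CPM in I-A-I-E-low macrophages (log2 fold change 1.34 ± 0.25 SE, adjusted p = 0.000924). Icosl passed the count filter through the high group, so the counts of this list are a description. Cd83, a maturation marker, was higher in 6 of 6 hashtag samples and its ranges did not overlap (log2 fold change 0.65 ± 0.09 SE, adjusted p = 3.43e-05). Cd40 and Cd86 were higher in 5 of 6 samples with overlapping ranges, at 0.65 ± 0.15 (adjusted p = 0.0114) and 0.50 ± 0.12 (adjusted p = 0.00776). Lgals9, which encodes galectin-9, was lower (log2 fold change -0.32 ± 0.10 SE, adjusted p = 0.0457). Cd274, the gene of PD-L1, did not pass (log2 fold change 0.64 ± 0.19 SE, adjusted p = 0.108), nor did Vsir, the gene of VISTA (adjusted p = 0.793). Without the cells holding mature dendritic cell RNA only Cd83 of these passed, at 0.38 (adjusted p = 0.0345), with Cd86 at 0.37 (adjusted p = 0.19) and Cd40 at 0.40 (adjusted p = 0.19), while Icosl was below the filter.

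Class I presentation genes that differed were higher by small amounts. Of 19 tested 4 were higher and 0 lower, where 3.34% of all genes were higher and 2.68% lower, with a median of 0.22. The summed level of the list was 15588 to 19829.6 CPM in I-A-I-E-high and 13537 to 17624 CPM in I-A-I-E-low macrophages, higher in 6 of 6 hashtag samples. The 4 were the immunoproteasome subunits Psmb8 (0.44 ± 0.08, adjusted p = 0.000404) and Psmb9 (0.49 ± 0.10, adjusted p = 0.00293) and the nonclassical heavy chains H2-T23 (0.27 ± 0.08, adjusted p = 0.0322) and H2-Q6 (0.57 ± 0.11, adjusted p = 0.00143), each higher in 6 of 6 hashtag samples with overlapping ranges. The class I genes of the H2 complex are similar enough for reads to be divided uncertainly. B2m, the class I light chain, did not pass (log2 fold change 0.16 ± 0.07 SE, adjusted p = 0.181). Psmb8 passed without the cells holding mature dendritic cell RNA, at 0.31 (adjusted p = 0.0456), and the other 3 did not.

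Interferon-inducible genes passed in both directions. Of 20 tested interferon-gamma response genes 1 was higher and 2 lower, and of 23 type I interferon genes 1 was higher and 2 lower, where 3.34% of all genes were higher and 2.68% lower. The summed level of the interferon-gamma list was 3606 to 8929 CPM in I-A-I-E-high and 4765 to 9354 CPM in I-A-I-E-low macrophages, higher in the high group in 1 of 6 hashtag samples, and that of the type I list was higher in 3 of 6. Irf8, a transcription factor of monocytes and dendritic cells, was higher (log2 fold change 0.45 ± 0.09 SE, adjusted p = 0.00236), and so was Ifi44 (log2 fold change 0.78 ± 0.18 SE, adjusted p = 0.00613). Cxcl10, an interferon-induced chemokine that attracts T cells and is named in the study's title, was lower. Cxcl10 ran from 1016 to 1799 CPM in I-A-I-E-high macrophages (median 1220.5), from 976 to 2596 CPM in I-A-I-E-middle (median 1762) and from 1233 to 3259 CPM in I-A-I-E-low macrophages (median 2256). It was lower in 6 of 6 hashtag samples (log2 fold change -0.80 ± 0.14 SE, adjusted p = 0.0116), with overlapping ranges between samples. Gbp7, Mx1 and Ifi204 were lower, at -0.41 ± 0.10, -0.41 ± 0.11 and -0.30 ± 0.08 (adjusted p = 0.015, 0.0251 and 0.0259). Irf1, an interferon-induced transcription factor, did not pass (adjusted p = 0.84). Cxcl10 was at -0.69 (adjusted p = 0.496) without the cells holding mature dendritic cell RNA and at 0.15 (adjusted p = 0.988) among cells with fewer monocyte UMIs, where its direction turned. In those cells Gbp7 also turned, at 0.16 (adjusted p = 0.893), and Irf1 was higher, at 0.86 (adjusted p = 0.00327).

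Most chemokines that differed were lower. Of 13 tested chemokines 6 were lower and 1 higher, where 2.68% of all genes were lower and 3.34% higher (median -0.36), and their summed level was 9618 to 14193 CPM in I-A-I-E-high and 12799.7 to 16531 CPM in I-A-I-E-low macrophages, lower in 6 of 6 hashtag samples. Ccl2, the ligand of the monocyte receptor Ccr2, showed no overlap. Ccl2 ran from 709 to 1237 CPM in I-A-I-E-high macrophages (median 818), from 1119 to 1729 CPM in I-A-I-E-middle (median 1472) and from 1368 to 1961 CPM in I-A-I-E-low macrophages (median 1719), a log2 fold change of -0.95 ± 0.09 (SE, adjusted p = 6.09e-08). Ccl6, Ccl9, Ccl3, Ccl4 and Cxcl2 were lower by less, at -0.79, -0.68, -0.29, -0.36 and -0.46 (adjusted p = 0.00784, 0.00447, 0.0361, 0.0248 and 0.0461). Cxcl16, a membrane chemokine for Cxcr6 on T cells, was the exception. Cxcl16 ran from 714 to 1085 CPM in I-A-I-E-high macrophages (median 766), from 466 to 841 CPM in I-A-I-E-middle (median 560.2) and from 408 to 598 CPM in I-A-I-E-low macrophages (median 493), a log2 fold change of 0.75 ± 0.08 (SE, adjusted p = 3.96e-07). Cxcl16 kept its call without the cells holding mature dendritic cell RNA, at 0.72 (adjusted p = 4.58e-05), and among cells with fewer monocyte UMIs, at 0.46 (adjusted p = 0.017). Ccl2 did not, at -0.88 (adjusted p = 0.128) and -0.55 (adjusted p = 0.391).

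Monocyte markers that differed were all lower in I-A-I-E-high macrophages. Of 13 tested, 5 were lower and 0 higher, where 2.68% of all genes were lower (median -0.66), and the summed level of the list was 9985 to 16311 CPM in I-A-I-E-high and 16827 to 24639.8 CPM in I-A-I-E-low macrophages, without overlap. Lyz2, the gene of lysozyme, fell without overlap. Lyz2 ran from 3661 to 6303 CPM in I-A-I-E-high macrophages (median 5077), from 5998 to 8568 CPM in I-A-I-E-middle (median 6866) and from 7999.9 to 10304 CPM in I-A-I-E-low macrophages (median 9455), a log2 fold change of -0.84 ± 0.07 (SE, adjusted p = 9.58e-09). F13a1, a transglutaminase of monocytes, averaged 42.8 ± 27.2 CPM in I-A-I-E-high and 157 ± 46.8 CPM in I-A-I-E-low macrophages (log2 fold change -1.92 ± 0.28 SE, adjusted p = 0.00656). Hp, haptoglobin, averaged 81.5 ± 38.7 CPM in I-A-I-E-high and 272 ± 76.4 CPM in I-A-I-E-low macrophages (log2 fold change -1.83 ± 0.33 SE, adjusted p = 0.0354). Clec4e, a receptor for microbial glycolipids, and S100a4, a calcium-binding protein, were lower at -0.66 and -0.34 (adjusted p = 0.000773 and 0.0216). Chil3, Ly6c2, Plac8 and Ccr2, commonly used to mark classical monocytes, did not pass, at -1.49, -0.49, -0.44 and -0.18 (adjusted p = 0.133, 0.179, 0.201 and 0.387). Lyz2, Clec4e and Hp kept their calls without the cells holding mature dendritic cell RNA, at -0.78 (adjusted p = 1.44e-06), -0.59 (adjusted p = 0.0226) and -2.08 (adjusted p = 0.0394), and F13a1 and S100a4 did not. The Hp call was lost without hashtag sample 2, 3, 5, 6 or 7 (adjusted p 1.07e-08 to 0.119 over the 6 fits).

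Enzymes and factors tied to suppression and tissue repair were lower where they differed. Of 10 tested, 3 were lower and 0 higher, where 2.68% of all genes were lower (median -0.78). Hmox1, heme oxygenase, averaged 190.1 ± 179 CPM in I-A-I-E-high and 438 ± 465 CPM in I-A-I-E-low macrophages, was lower in 6 of 6 hashtag samples and had overlapping ranges (log2 fold change -1.07 ± 0.14 SE, adjusted p = 0.000283). Thbs1, thrombospondin, averaged 242 ± 129 CPM in I-A-I-E-high and 729 ± 214 CPM in I-A-I-E-low macrophages (log2 fold change -1.69 ± 0.16 SE, adjusted p = 0.000121). Ptgs2, the prostaglandin synthase COX-2, was lower at -0.49 ± 0.11 (adjusted p = 0.00694). Arg1, the arginase of suppressive macrophages, had the lowest estimate of the list and varied widely. Arg1 ran from 1.66 to 170.0 CPM in I-A-I-E-high macrophages (median 30.6), from 1.92 to 209 CPM in I-A-I-E-middle (median 87.3) and from 4.36 to 491 CPM in I-A-I-E-low macrophages (median 104), and it did not pass (log2 fold change -1.76 ± 0.45 SE, adjusted p = 0.117). Mrc1, the mannose receptor, was higher in 6 of 6 hashtag samples at 0.51 ± 0.16 without passing (adjusted p = 0.0727), and it passed without the cells holding mature dendritic cell RNA, at 0.90 (adjusted p = 0.0147). Hmox1 also passed there, at -1.05 (adjusted p = 8.99e-05), and Thbs1 and Ptgs2 did not.

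**Figure D4:**
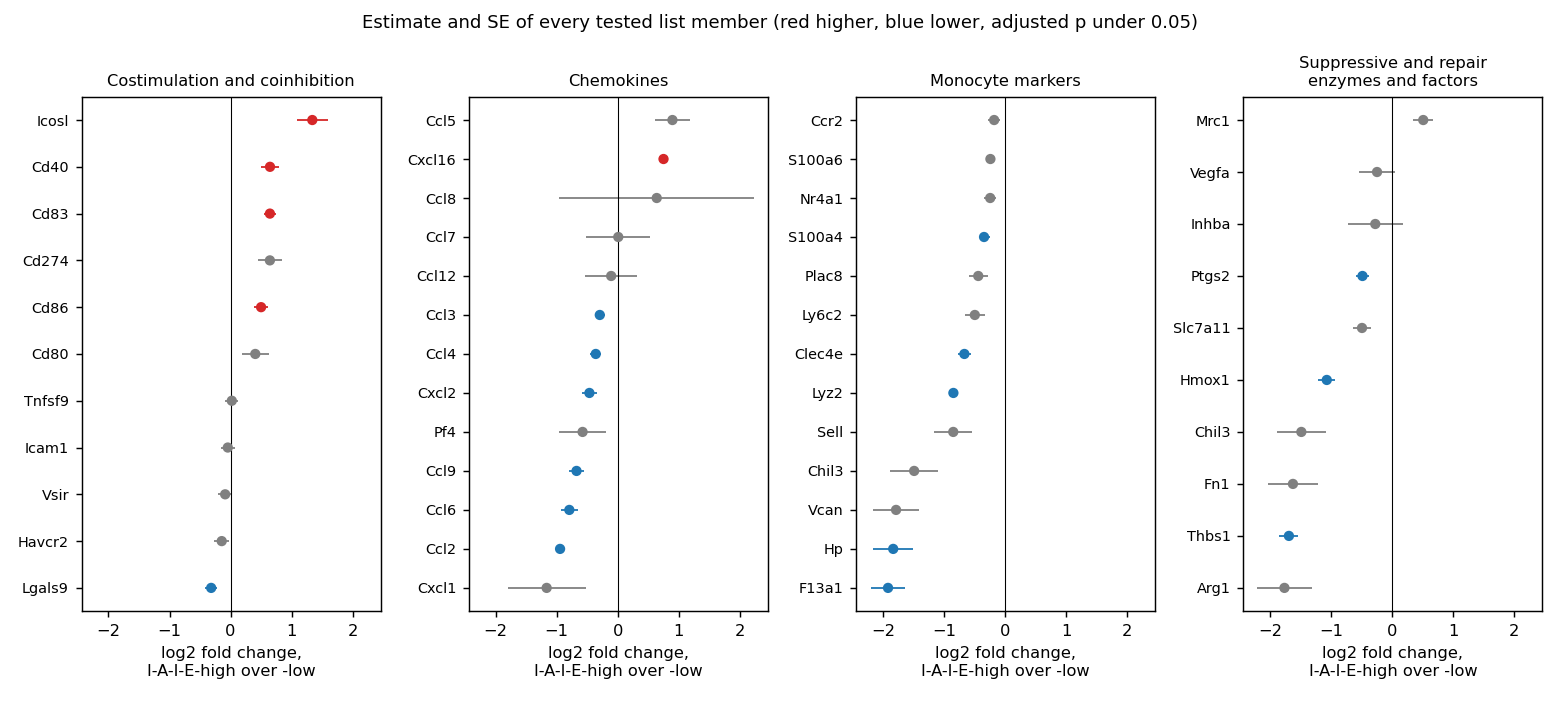
Log2 fold change, I-A-I-E-high over I-A-I-E-low macrophages (horizontal, points with SE bars), for every tested member of 4 lists, coloured where the adjusted p is under 0.05. The monocyte list lies wholly below 0, and chemokines lie mostly below 0 with Cxcl16 coloured above it. Most costimulation genes lie above 0, and 4 of them are coloured as higher.

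Uptake and lysosomal genes passed in both directions. The summed complement list was 5604 to 10222 CPM in I-A-I-E-high and 3329.8 to 6562 CPM in I-A-I-E-low macrophages, higher in 6 of 6 hashtag samples, with 1 of 11 tested genes higher and 2 lower. The summed lipid and lysosome list was 16208 to 21259 CPM in I-A-I-E-high and 17878 to 23867 CPM in I-A-I-E-low macrophages, higher in the high group in 0 of 6. Of all genes 3.34% were higher and 2.68% lower. Itgax, which encodes CD11c, was higher in 6 of 6 hashtag samples (log2 fold change 0.90 ± 0.15 SE, adjusted p = 0.000706), while Itgam, which encodes CD11b, was lower in 5 of 6 (log2 fold change -0.40 ± 0.10 SE, adjusted p = 0.0114). C5ar1, the receptor for complement fragment C5a, was lower at -0.32 (adjusted p = 0.0368), and its estimate was 0.05 when cells were thinned to 2000 UMIs. The complement genes C1qa, C1qb and C1qc did not pass, at 0.64, 0.66 and 0.69 (adjusted p = 0.204, 0.178 and 0.264). Fcgrt, the neonatal Fc receptor, was higher and Fcgr1, the high-affinity IgG receptor, lower, at 0.84 ± 0.24 and -0.33 ± 0.08 (adjusted p = 0.0323 and 0.00901). Of 19 tested lipid and lysosome genes only Ctsd, cathepsin D, passed, and it was lower (log2 fold change -0.52 ± 0.11 SE, adjusted p = 0.00572). Spp1 and Trem2 of that list did not pass, at -1.26 and -0.44 (adjusted p = 0.157 and 0.242). Itgax and Fcgrt passed without the cells holding mature dendritic cell RNA, at 1.02 (adjusted p = 0.0014) and 1.13 (adjusted p = 0.0184).

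Single cytokine, metabolism, activation and division genes passed, where 3.34% of all genes were higher and 2.68% lower. Of 11 tested inflammatory cytokines 2 were lower, Osm (oncostatin M) and Il18, at -0.61 ± 0.10 and -0.56 ± 0.15 (adjusted p = 0.000283 and 0.017). Il12b, a subunit of interleukin-12, was below the filter with 165 UMIs in high and 0 in low macrophages. Of 17 tested hypoxia and glycolysis genes 2 were lower, the pyruvate kinase Pkm and the lactate carrier Slc16a3, at -0.31 and -0.47 (adjusted p = 0.0431 and 0.00976). Of 17 tested immediate early genes, which dissociation can induce, 2 were lower, Ier3 and Klf2, at -0.56 and -0.40 (adjusted p = 8.49e-05 and 0.00942). Of 6 tested cell cycle genes only H2afz, a histone variant, passed, and it was higher (log2 fold change 0.67 ± 0.09 SE, adjusted p = 1.88e-05). Mki67 or Top2a was seen in 74 of 294 high and 63 of 294 low macrophages, with an exact permutation p of 0.25.

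Outside the lists, the 10 genes with the largest higher estimates (adjusted p under 0.05, at least 20 CPM on average, same sign in 6 of 6 hashtag samples) were Tbc1d4 (4.33), Ramp3 (3.91), Serpinb6b (3.44), Dnase1l3 (2.85), Net1 (2.52), Grasp (2.52), Rogdi (2.47), P2ry10 (2.10), Tmem123 (2.07) and Tmem176a (2.03). The low group held 20 UMIs of Ramp3, 29 of Net1, 32 of Tbc1d4 and 40 of P2ry10. It held 42 each of Grasp and Rogdi, 43 of Dnase1l3 and 54 of Serpinb6b. All of these passed the count filter through the high group, so their rank is a description. Without the cells holding mature dendritic cell RNA, Dnase1l3 and Tmem176a kept their calls, Tmem123 was at 0.38 (adjusted p = 0.391), and the others were below the filter. Tbc1d4 encodes a Rab GTPase-activating protein and Ramp3 a receptor activity-modifying protein. Dnase1l3 ran from 16.1 to 136 CPM in I-A-I-E-high macrophages (median 64.9), and from 0 to 24.4 CPM in I-A-I-E-low macrophages (median 6.98). Dnase1l3, a secreted nuclease of macrophages and dendritic cells, was higher with overlapping ranges (log2 fold change 2.85 ± 0.23 SE, adjusted p = 3.75e-09). Among the 10 with the largest lower estimates were Mmp19 (-1.51), Mgst1 (-1.49), Gstm1 (-1.41), Gsr (-1.26), Adora2b (-1.25), Id1 (-1.23), Serpinb8 (-1.07), Clec4d (-1.03) and Cd33 (-0.86). Mgst1, Gstm1 and Gsr are enzymes of glutathione metabolism, and Mmp19 is a matrix metalloproteinase. Mmp19, Adora2b, Gstm1 and Id1 held 60, 64, 66 and 72 UMIs in the high group and passed the filter mainly through the low group. Mgst1 ran from 22.5 to 56.2 CPM in I-A-I-E-high macrophages (median 32.5), and from 59.97 to 154 CPM in I-A-I-E-low macrophages (median 92.97), a log2 fold change of -1.49 ± 0.17 (SE, adjusted p = 2.67e-06). Among cells with fewer monocyte UMIs Mgst1 and Gsr lost their calls, at -0.79 (adjusted p = 0.446) and -0.67 (adjusted p = 0.107).

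When the cells holding mature dendritic cell RNA were left out, the same rule named Dnase1l3, Ifitm1, Clec4b1, Gpr171, Il1r2, Tmem176a, Gatm, Cbfa2t3, Avpi1 and Ocstamp as the 10 largest higher genes, of which 2 were on the first list (Dnase1l3 and Tmem176a). Dnase1l3, Clec4b1 and Ocstamp averaged 8.68, 15.2 and 16.5 CPM in the low group without those cells. These genes passed the count filter mainly through the high group. The 10 lower genes were Mmp19, Mgst1, Gstm1, Adora2b, Gsr, Serpinb8, Rgcc, Clec4d, Fosl2 and Smpdl3a, of which 7 were shared. Ifitm1, an interferon-induced membrane protein, had a log2 fold change of 1.68 (adjusted p = 0.0106) there, Gpr171, a G protein-coupled receptor, 1.31 (adjusted p = 0.000257), and Il1r2, the decoy receptor of interleukin-1, 1.24 (adjusted p = 0.0069). Over all macrophages Ifitm1 had not passed (adjusted p = 0.0774). Ifitm1, Gpr171 and Il1r2 did not pass without cells holding a UMI of 7 dendritic cell genes. They were at 0.89, 0.93 and 0.80 there (adjusted p = 0.0671, 0.122 and 0.249). Clec4b1, Tmem176a, Cbfa2t3 and Avpi1 did not pass there either, Gatm and Ocstamp did, and Dnase1l3 was below the filter.

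Markers of other cell types were counted in both groups, where 3.34% of all genes tested were higher and 2.68% lower. The summed level of 14 T and NK cell markers was 39.00 to 453 CPM in I-A-I-E-high and 322 to 878 CPM in I-A-I-E-low macrophages, higher in the high group in 1 of 6 hashtag samples, and Ms4a4b was the 1 of 6 tested that passed (log2 fold change -1.29 ± 0.24 SE, adjusted p = 0.013). Neutrophil markers summed to 53.1 to 2220.2 CPM in I-A-I-E-high and 307 to 2554 CPM in I-A-I-E-low macrophages, with Mmp8 lower (log2 fold change -1.70 ± 0.34 SE, adjusted p = 0.0143) and the other 3 tested not passing. Carcinoma markers summed to 17.95 to 48.2 CPM in I-A-I-E-high and 21.5 to 43.6 CPM in I-A-I-E-low macrophages, none was testable, and Krt19, Cldn7, Cldn4 and Sprr1a were at 0. Endothelial markers summed to 89.96 to 305 CPM in I-A-I-E-high and 117 to 339 CPM in I-A-I-E-low macrophages, with Flt1 lower at -0.83 (adjusted p = 0.0215). Microglia markers outside the rule summed to 4703 to 6513 CPM in I-A-I-E-high and 3261 to 3789 CPM in I-A-I-E-low macrophages, where Cst3, cystatin C, and Selplg, the P-selectin ligand, were higher (log2 fold change 1.02 ± 0.12 SE, adjusted p = 0.000411 for Cst3) and 6 did not pass. The median log2 fold change of this list was 0.002 (range -0.49 to 1.02), and Cst3 held much of the sum. Cst3 stood at 6831 CPM in the 65 cells holding mature dendritic cell RNA, 3399.6 in other high and 2159.9 in low macrophages. Border-associated macrophage and B cell markers gave 0 calls by edgeR among 6 and 3 tested, and 1 (Mrc1) and 0 without the cells holding mature dendritic cell RNA. The part of these RNAs in the results was not tested.

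The other antibody tags gave a second protein readout. Of 34 other antibodies 31 could be tested, as shares of the antibody tags without I-A-I-E. By edgeR 7 were higher (22.6%) and 2 lower (6.45%) in I-A-I-E-high macrophages. CD11c made up 2.06 to 4.54% of the other antibody tags in I-A-I-E-high macrophages (median 2.88%) and 0.922 to 1.34% in I-A-I-E-low macrophages (median 1.095%). CD11c, the integrin of dendritic cells and activated macrophages, was higher in 6 of 6 hashtag samples (log2 fold change 1.43 ± 0.16 SE, adjusted p = 0.000585). CD86 made up 1.34 to 3.798% of the other antibody tags in I-A-I-E-high macrophages (median 2.68%) and 1.09 to 1.98% in I-A-I-E-low macrophages (median 1.16%), with a log2 fold change of 0.96 ± 0.19 (SE, adjusted p = 0.00617). CD86 is a costimulatory ligand of CD28. CD103, CD25, CD83, CD117-c-kit and PD-L1 were also higher, at 1.11, 0.90, 0.89, 0.87 and 0.74 (adjusted p = 0.00617, 0.000678, 0.00107, 0.0224 and 0.018). Of these, CD25 and CD117-c-kit had few counts. They averaged 5.61 and 8.69 counts per cell in I-A-I-E-high and 2.56 and 3.90 in I-A-I-E-low macrophages.

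The lower tags were Ly6C, which marks classical monocytes, and CD4. Ly6C made up 8.11 to 14.2% of the other antibody tags in I-A-I-E-high macrophages (median 12.5%) and 12.7 to 25.5% in I-A-I-E-low macrophages (median 16.2%; log2 fold change -0.61 ± 0.11 SE, adjusted p = 0.00388). The CD4 tag had a log2 fold change of -0.68 ± 0.22 (SE; adjusted p = 0.0479). All 9 tags kept 1 direction in 6 of 6 hashtag samples, and by the exact sign-flip permutation test 13 of 31 tags reached the smallest possible p of 0.03125, which became 0.0745 after Benjamini-Hochberg adjustment, so 0 passed. Of these tags CD11c, CD86, CD83, PD-L1 and Ly6C had a tested gene (Itgax, Cd86, Cd83, Cd274 and Ly6c2), each with the same sign as the tag, and Itgax, Cd86 and Cd83 passed. CD11b, F4-80 and CD64, general macrophage tags, did not pass (adjusted p = 0.735, 0.24 and 0.15). Without the cells holding mature dendritic cell RNA, CD11c at 1.53, CD86 at 0.76 and Ly6C at -0.53 passed (adjusted p = 0.000305, 0.0303 and 0.032), and the other 6 did not. Of those, CD117-c-kit was at 0.60, CD103 at 0.55, PD-L1 at 0.51, CD83 at 0.45, CD4 at -0.51 and CD25 at 0.17. A tag count also holds antibody bound without its target, whose part was not tested.

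**Figure D5:**
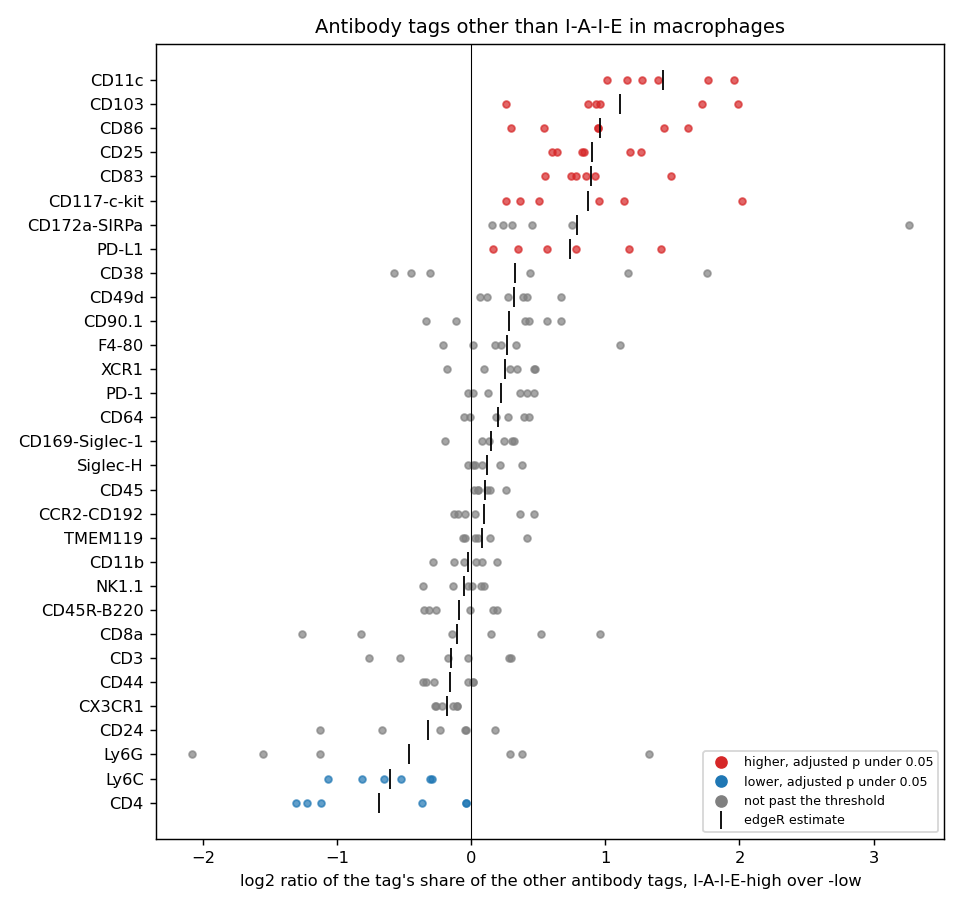
Log2 ratio of each antibody tag's share of the other tags, I-A-I-E-high over I-A-I-E-low macrophages (horizontal), with 1 point per hashtag sample and a bar at the edgeR estimate, for 31 tested tags. CD11c lies highest with 6 of 6 points above 0, Ly6C and CD4 lie lowest among those that passed, and 1 CD172a-SIRPa point stands apart at 3.26.

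Microglia of hashtag samples 5 to 8 (26 to 35 cells per group) were divided in the same way by their I-A-I-E share, to set the macrophage differences beside those of another cell type. In microglia 31 genes were higher (0.707%) and 17 lower (0.388%) of 4382 tested. Cd74 was higher in I-A-I-E-high microglia at 3.21 (adjusted p = 0.0453) and Cxcl16 at 1.32 (adjusted p = 0.000646), while H2-Aa, at 4.89 (adjusted p = 0.0508), did not pass. A test of the difference itself (macrophage minus microglia log2 fold change, 4 hashtag samples) found 36 genes (0.629%) with a larger and 18 (0.314%) with a smaller value in macrophages, of 5726 tested. The difference was -1.14 ± 1.34 (SE, adjusted p = 0.833) for H2-Aa and -0.29 ± 0.77 (SE, adjusted p = 0.931) for Cd74, which did not pass. H2-DMa passed, at 0.99 ± 0.23 (SE, adjusted p = 0.0324), with 0.03 in microglia alone. Cd83, Cst3 and Fscn1 also had larger values in macrophages, at 0.89, 1.95 and 5.78, and Ccl2 and Ccl4 smaller ones, at -2.16 and -1.17 (adjusted p = 0.0158, 8.71e-08, 6.25e-10, 0.0441 and 0.00108). The microglia groups were small and held 666 ± 474 CPM of H2-Aa in the high and 20.8 ± 7.79 CPM in the low group (SD, n = 4 each), where T cells spanned 22.98 to 677 CPM.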

How the data were processed

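Transcripts, antibody tags and hashtags of 1 pooled CITE-seq capture were analysed. What the authors deposited is a matrix of whole-number UMI counts for each feature in each barcode, not normalized, and the submitters' processing notes name Cell Ranger 3.1, Seurat 3.1.1 and build mm10. The annotation behind the genes was not stated. The matrix held 31062 genes or transgenes, 35 antibodies, 8 mouse and 6 human hashtags over 12908 distinct barcodes of that capture, and the 3 kinds of count share these barcodes. Barcodes with more than 1 hashtag were removed through the limit of 70%. No doublet caller was run, and pairs of cells with the same hashtag would remain.

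Macrophages were ranked by I-A-I-E counts over all antibody counts within each hashtag sample, and UMIs were added up over the cells of each group of a hashtag sample, with at least 20 cells per group. The sums were tested in R 4.3.3 by edgeR 4.0.16 (quasi-likelihood, TMM, filterByExpr, robust), blocked by hashtag sample, with p-values adjusted by Benjamini-Hochberg and a threshold of 0.05. Both groups of a pair come from the same suspension, and their deviations from the group means correlated at 0.113 to 0.334. Antibody counts were tested likewise against the total of the other antibody counts. Microglia had at least 4 of the 6 identity genes. In counts simulated for the main comparison over 5600 genes, 93.9% of genes changed by a log2 of 1 and 100% of those changed by 1.5 were recovered, with 8 false calls. The changed genes were drawn from those with higher counts, all genes had the same dispersion, and mixtures of cells were not simulated. The recovery therefore does not carry over to genes with few counts or a wide spread between hashtag samples.

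The members, the 26 gene lists (350 genes, of which 347 were in the matrix, 246 were tested, 31 were higher and 33 lower) and the tests were chosen with earlier results of these data known. Genes were named from the lists, and outside them as the 10 with the largest estimate in each direction among those with an adjusted p under 0.05, at least 20 CPM and 1 sign in 6 of 6 hashtag samples. Gene models, Y-linked genes, Xist and ribosomal pseudogenes were left out of the naming. Aldoa, Ifi30 and Mx2 were list names without a row. The alternatives changed the tool, scaling, filter, block, depth, ranking measure, group width, cell limits and hashtag samples. Treatment was not compared, and 3 genes are not reported here.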

Additional observations from a re-analysis of the deposited data

Results flagged for a closer look

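In 9 of 132 sets of 6 hashtag samples, 1 sample's log2 ratio of I-A-I-E-high over I-A-I-E-low macrophages stood apart from the other 5 by Dixon's criterion, which flags about 1 in 20 sets by chance. The genes were Clec4b1 in hashtag sample 3 (3.54, against 0.65 to 1.52 in the other 5), Clec4d in hashtag sample 7 (-0.51, against -1.28 to -1.03 in the other 5), Cxcl10 in hashtag sample 7 (-0.0156, against -1.17 to -0.86 in the other 5) and Il18 in hashtag sample 8 (-1.38, against -0.49 to -0.16 in the other 5). The others were Mmp8 in hashtag sample 8 (-4.38, against -1.61 to -0.72 in the other 5), Psmb9 in hashtag sample 7 (1.096, against 0.26 to 0.43 in the other 5), Ptgs2 in hashtag sample 2 (-1.23, against -0.53 to -0.27 in the other 5) and Smpdl3a in hashtag sample 2 (-1.64, against -0.80 to -0.38 in the other 5). Cxcl10 was thus nearly equal in the high and low macrophages of hashtag sample 7 while it was lower in the high group of the other 5. The CD172a-SIRPa tag, which marks myeloid cells, had a log2 ratio of 3.26 in hashtag sample 7, against 0.15 to 0.75 in the other samples, and did not pass the test over tags.

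Among genes named here, 16 had a log2 fold change in macrophages that differed from that in microglia by the test of the difference (4 hashtag samples, edgeR, adjusted p under 0.05). Over all 5726 genes tested, 36 (0.629%) had a larger and 18 (0.314%) a smaller value in macrophages. Many named genes had been picked for a difference in macrophages, so the count among them is a description. The difference, macrophages minus microglia with its SE, was above 0 for Cbfa2t3 (2.59 ± 0.41, adjusted p = 0.00157), Cd83 (0.89 ± 0.18, adjusted p = 0.0158), Clec4e (3.51 ± 0.71, adjusted p = 0.0283), Cst3 (1.95 ± 0.16, adjusted p = 8.71e-08), Fscn1 (5.78 ± 0.37, adjusted p = 6.25e-10) and Gpr171 (3.24 ± 0.70, adjusted p = 0.0226). It was also above 0 for Grasp (2.42 ± 0.58, adjusted p = 0.0441), H2-DMa (0.99 ± 0.23, adjusted p = 0.0324), Rogdi (2.19 ± 0.45, adjusted p = 0.0214), Selplg (1.00 ± 0.17, adjusted p = 0.0025) and Tmem123 (1.93 ± 0.43, adjusted p = 0.0283). It was below 0 for Ccl2 (-2.16 ± 0.37, adjusted p = 0.0441), Ccl4 (-1.17 ± 0.18, adjusted p = 0.00108), Ifi204 (-1.14 ± 0.20, adjusted p = 0.00415), Mx1 (-1.59 ± 0.38, adjusted p = 0.0394) and Rgcc (-3.52 ± 0.57, adjusted p = 0.00157). Fscn1 is among the genes of mature dendritic cells that 65 of 294 I-A-I-E-high macrophages carried, whose part in these differences was not tested. Clec4e, Gpr171, Grasp, Mx1 and Rgcc were below the count filter in microglia alone, at 2.67 to 59.5 CPM on average in their high and low groups, so these 5 differences rest on few microglial UMIs. Clec4e was lower in I-A-I-E-high macrophages (log2 fold change -0.66), and its difference above 0 comes from a lower mean in high than in low microglia (2.67 and 59.5 CPM).

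Human hashtags, which the labels mention for no sample, had 3965 counts in the macrophages, against 1240803 mouse hashtag counts.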

How the results depend on the processing

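The counts of higher and lower genes (192 and 154) were 106 and 51 with no replicate block, 127 and 74 by DESeq2 on 15853 genes without the count filter, 26 and 31 when each cell was thinned to 2000 UMIs, and 51 and 71 with at most 20000 UMIs. They were 35 and 63 without cells holding a UMI of 7 dendritic cell genes, 62 and 60 without cells holding mature dendritic cell RNA, and 79 and 14 in the cells with fewer monocyte UMIs, and these settings also hold fewer cells or UMIs. With no count filter 336 were higher, and with all 8 hashtag samples 101 were lower. Leaving out 1 hashtag sample gave 127 to 184 higher and 87 to 142 lower genes, with 127 higher and 87 lower without sample 5, and 99 and 96 lower without samples 2 and 8. Of 96 genes named and called, 47 lost the call with no replicate block and 30 by DESeq2, and the direction stayed in both. Without cells holding a dendritic cell UMI 46 lost it and 1 turned. In the cells with fewer monocyte UMIs 48 lost it and 2 turned. Without cells holding mature dendritic cell RNA 36 lost it and 0 turned. Some of the 96 could not be tested in these smaller sets of cells. Higher and lower tags (7 and 2) were 1 and 0 without cells holding a dendritic cell UMI, 2 and 1 without cells holding mature dendritic cell RNA, and 0 and 0 by the exact test. Lower tags were 1 with no replicate block and 5 with RNA UMIs as library size, and without single hashtag samples 5 to 8 were higher and 1 to 2 lower. The macrophage against microglia counts (36 and 18) were 8 and 6 after thinning and 13 and 4 with no replicate block. Leaving out 1 hashtag sample lost 13 to 27 of the calls of the 96 named genes (27 without sample 5) and turned 0. Beside the class II chains, Cd74 and Hp, the losses included, with the hashtag samples left out and the highest adjusted p, C5ar1 without 3, 5, 6, 7 or 8 (0.173), Ccl3 without 2, 5, 6 or 7 (0.151), Ccl4 without 3, 5, 6 or 8 (0.109), Ccl6 without 7 (0.0517), Cd33 without 5 (0.0906), Cd40 without 2 or 5 (0.0761), Cd86 without 5 or 7 (0.0643), Cxcl10 without 6 (0.109) and Cxcl2 without 3, 7 or 8 (0.186). They also included Cxcr4 without 5, 6, 7 or 8 (0.126), Fcgr1 without 8 (0.0758), Fcgrt without 2, 3, 5 or 8 (0.26), Flt1 without 2, 6 or 8 (0.0958), Gatm without 5, 6 or 8 (0.201), Gbp7 without 5 (0.104), H2-DMb1 without 2, 3, 5 or 8 (0.0756), H2-T23 without 2, 3, 5, 7 or 8 (0.147) and Id1 without 2, 3, 6, 7 or 8 (0.118). They also included Ifi204 without 2, 5, 6 or 8 (0.13), Ifi44 without 7 (0.0521), Il18 without 5 or 8 (0.187), Itgam without 5 or 8 (0.0833), Klf2 without 5 (0.0824), Lgals9 without 2, 5, 6, 7 or 8 (0.185), Mmp8 without 2, 5 or 7 (0.0712), Ms4a4b without 2, 5 or 8 (0.0678) and Mx1 without 5, 6 or 8 (0.165). They also included Ocstamp without 7 or 8 (0.201), Pkm without 2, 3, 5, 6 or 8 (0.173), S100a4 without 2, 3, 7 or 8 (0.145), Selplg without 5 (0.0511), the tag CD117-c-kit without 3 or 5 (0.0775), the tag CD4 without 2, 3, 7 or 8 (0.141) and the tag PD-L1 without 3 or 8 (0.0555). Directions turned for C5ar1 after thinning (0.0468), for Selplg without dendritic cell UMIs (-0.0181), and in the cells with fewer monocyte UMIs for Cxcl10 (0.149), Gbp7 (0.159) and Irf1 (0.859, adjusted p = 0.00327); the cause was not tested. Leaving out cells with 2 monocyte UMIs kept 68 macrophages and gave no value. The all-sample, mature dendritic cell and fewer-monocyte-UMI settings were chosen after seeing the data. Counting depth limited the thinned setting, in which 1105 of 5755 genes could be tested.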
